A study of Homo sapiens with 8 samples.

Results

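The genes described here are SOX17, its sister SOXF genes SOX7 and SOX18, and 7 regulators that act with SOX17 when endoderm forms, namely GATA4, GATA6, FOXA1, FOXA2, FOXA3, EOMES, and CXCR4. They were chosen by gene symbol, through the RefSeq transcript to which each array probe was designed, and are 10 of 19480 named genes on the array, measured by 12 probes. Expression was measured on 8 single-color arrays, each hybridized with RNA of a different stable transfectant of HEK293T, a line derived from human embryonic kidney. Each of 4 vectors was represented by 2 clones. All cell lines carried a pcDNA6/Myc-His plasmid, were selected with blasticidin S, and were grown from individually picked colonies, so each line is 1 clone. The empty vector clones were #1 and #2. TET1-CDwt #2 and #5 expressed the catalytic domain of TET1, an enzyme that oxidizes 5-methylcytosine. MBD-TET1-CDwt #3 and #10 expressed this domain joined to the part of MBD2 that binds methylated CpG sites (MBD). MBD-TET1-CDmut #9 and #10 expressed the fusion with a catalytically inactive domain. The comparisons ask which of these genes were switched on when the active domain was brought to methylated promoters.

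SOX17 is a transcription factor with an HMG box that is required for definitive endoderm and also acts in arterial endothelium and in human primordial germ cells. SOX7 and SOX18 share its DNA-binding domain and act in blood vessels, and SOX7 also in extraembryonic endoderm. In the embryo, Nodal and Activin signals raise EOMES, which with SOX17, GATA4, GATA6, and the FOXA pioneer factors sets up the endoderm program, and the chemokine receptor CXCR4 marks the surface of the new endoderm. The SOX17 promoter is a CpG island that is often methylated in cultured and cancer cells.

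Because the MBD part of the fusion recognizes methylated CpG sites, the CpG content of the promoters is shown for 4 genes whose levels are given below. None of these 4 genes was called in any comparison, and no window was at hand for SOX17. RefSeq promoter windows (GRCh38.p14) were at hand for 5 of the 10 genes, CXCR4, EOMES, FOXA1, FOXA3, and GATA6. The 250 bases before the start site held 24 CpG sites in CXCR4, 19 in EOMES, 26 in FOXA1, 28 in FOXA3, and 16 in GATA6, against a median of 11 over 35116 windows. The CXCR4 count is that of its most upstream start, and its other starts had 12 and 8. As many CpG sites as in FOXA3 were held by 15.9% of all windows, as in FOXA1 by 19.6%, as in CXCR4 by 23.7%, as in EOMES by 34.6%, and as in GATA6 by 41.0%. HHEX (38 sites, 3.28% of windows with as many) and CXCL12 (31 sites, 10.9%) are not in the group but are partners whose levels are given below. The windows are shown 5′ to 3′ with each CpG in capitals, FOXA1 at chr14:37595250-37595499 and CXCR4 at chr2:136118150-136118399 (both minus strand), CXCL12 at chr10:44385098-44385347 (minus strand), and HHEX at chr10:92689705-92689954 (plus strand).
FOXA1: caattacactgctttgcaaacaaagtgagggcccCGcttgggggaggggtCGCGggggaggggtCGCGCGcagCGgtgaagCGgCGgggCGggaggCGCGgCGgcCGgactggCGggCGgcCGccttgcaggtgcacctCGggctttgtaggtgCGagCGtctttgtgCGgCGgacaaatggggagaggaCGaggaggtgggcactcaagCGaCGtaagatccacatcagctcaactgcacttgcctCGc
CXCR4: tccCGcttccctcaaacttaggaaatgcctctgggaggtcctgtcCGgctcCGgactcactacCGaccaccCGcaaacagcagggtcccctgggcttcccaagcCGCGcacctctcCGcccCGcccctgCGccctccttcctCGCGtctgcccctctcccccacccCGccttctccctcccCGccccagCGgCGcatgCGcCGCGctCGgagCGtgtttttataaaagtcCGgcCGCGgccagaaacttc
CXCL12: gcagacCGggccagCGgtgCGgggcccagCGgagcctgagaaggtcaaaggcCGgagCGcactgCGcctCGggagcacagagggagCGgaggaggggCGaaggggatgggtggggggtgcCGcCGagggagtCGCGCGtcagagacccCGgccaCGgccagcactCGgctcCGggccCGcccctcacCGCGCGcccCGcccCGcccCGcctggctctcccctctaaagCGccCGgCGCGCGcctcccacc
HHEX: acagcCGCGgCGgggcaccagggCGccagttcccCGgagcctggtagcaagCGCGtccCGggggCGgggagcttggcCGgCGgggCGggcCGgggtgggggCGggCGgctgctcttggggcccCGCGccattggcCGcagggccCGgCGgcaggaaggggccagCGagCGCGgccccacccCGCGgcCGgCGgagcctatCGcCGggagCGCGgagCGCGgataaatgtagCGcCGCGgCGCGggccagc
These letters give CpG content alone, and the methylation of the sites was not measured on the arrays.

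Levels below are log2 intensities relative to the 75th percentile of all probes on the same array, so a level of 0 equals that percentile. A signal counted as well above background when the scanner software called it so, and the weakest such signals lay between -6.01 and -5.51. Between 63.2% and 68.2% of probes were well above background on an array. Empty vector and TET1-CDwt shared slide 1 and both MBD fusions shared slide 2, so construct and slide cannot be told apart across slides. Over 9137 probes that were dim on every array, the median difference was 0.37 between MBD-TET1-CDwt and empty vector and 0.03 between the MBD fusions. Of the 10 embryonic kidney and HEK293 markers examined, all 10 were expressed. Markers of other cell types were mixed. PECAM1, TIE1, HBB, CD3E, ALB, TTR, DCN, and COL1A2 were not well above background on any array. CDH5, COL1A1, PDGFRA, SERPINA1, and a probe each of APOA1 and PTPRC were so on all 8 arrays.

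SOX17 was at background in every clone except those of MBD-TET1-CDwt, where it was strongly expressed in both. Its level (transcript NM_022454) was -7.96 and -8.18 in empty vector #1 and #2, -8.15 and -7.17 in TET1-CDwt #2 and #5, and -7.72 and -7.70 in MBD-TET1-CDmut #9 and #10. In MBD-TET1-CDwt #3 and #10 it was -0.47 and 1.13. The 2 MBD-TET1-CDwt arrays were the only ones on which SOX17 was well above background, and they did not overlap with the other 6, which lay between -8.18 and -7.17. As spot intensities, the signal was 252 and 716 in these clones and between 1.41 and 3.19 on the other 6 arrays.

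The group means were 0.33 ± 1.13 for MBD-TET1-CDwt, -8.07 ± 0.15 for empty vector, -7.66 ± 0.69 for TET1-CDwt, and -7.71 ± 0.014 for MBD-TET1-CDmut (SD, n = 2 each). Because the lower groups were at background, the folds are lower bounds. Compared with empty vector, SOX17 in MBD-TET1-CDwt was higher by at least 75.7-fold (log2 difference 8.40, 95% interval 7.14 to 9.66, limma adjusted p = 0.00307). Within slide 2 it was at least 58.0-fold higher with the active than with the inactive fusion (8.04, interval 6.78 to 9.30, adjusted p = 0.00473). It was also at least 75.7-fold higher than with the untargeted catalytic domain (7.99, interval 6.73 to 9.24, adjusted p = 0.00494). These differences and intervals use the measured signals of the lower groups, which were at background. With dim signals raised to the weakest signal that passed the background limit they were 6.24 from empty vector (adjusted p = 0.00734) and 5.86 from MBD-TET1-CDmut (adjusted p = 0.0158). TET1-CDwt and empty vector differed by 0.42 (interval -0.84 to 1.67), and MBD-TET1-CDmut and empty vector by 0.36, both at background. The call against empty vector was lost without empty vector #2 (adjusted p = 0.0574), and the call against the inactive fusion was lost without either MBD-TET1-CDmut clone (adjusted p = 0.0816 without #10 and 0.111 without #9), while the differences stayed between 7.24 and 9.20. SOX17 entered the test only through MBD-TET1-CDwt, the group in which it was high. RNA was taken from whole cultures, so more SOX17 transcripts per cell and more cells with the transcript cannot be told apart.

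The clones of MBD-TET1-CDwt differed from each other as well, by 1.60 on the log2 scale for SOX17, with #10 the higher. A gap as large between these clones was seen for 3.45% of 22530 tested probes. SOX17 was among 37 of 34071 probes (0.109%) that passed the background limit in MBD-TET1-CDwt #3 and #10 and nowhere else. The same count was 60 for empty vector, 24 for TET1-CDwt, and 2 for MBD-TET1-CDmut.

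Neither sister SOXF gene followed SOX17. SOX7 was expressed on all 8 arrays, at -3.91 and -3.99 in empty vector, -3.88 and -4.05 in TET1-CDwt, -4.08 and -3.81 in MBD-TET1-CDwt, and -3.78 and -3.38 in MBD-TET1-CDmut. The groups overlapped, except that both MBD-TET1-CDmut clones were the highest, and MBD-TET1-CDwt differed from empty vector by 0.01 (95% interval -0.49 to 0.51) and from MBD-TET1-CDmut by -0.36 (interval -0.86 to 0.13). SOX18 did not pass the background limit on any of the arrays. Its signal was -6.97 and -7.97 in empty vector, -5.93 and -6.47 in TET1-CDwt, -7.14 and -5.26 in MBD-TET1-CDwt, and -7.07 and -7.52 in MBD-TET1-CDmut, values that have no reliable order. SOX18 was left out of the test for this reason, and when all probes were tested its difference of MBD-TET1-CDwt from empty vector was 1.27 (limma adjusted p = 0.455), a value between signals at background.

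Over the group, 10 probes of 8 genes entered the limma test, and SOX17 was the only one called in each comparison of MBD-TET1-CDwt. SOX17 entered the test only through MBD-TET1-CDwt, where it was high, so the calls below describe this gene and not the group. Against empty vector 1 of the 10 probes was called, where 0.115% of all 22530 probes were. Against MBD-TET1-CDmut it was 1 of 10, where 0.102% of all were, and against TET1-CDwt 1 of 10, where 0.115% were. TET1-CDwt and MBD-TET1-CDmut against empty vector gave 0 of 10 by limma, where 0% of all probes were called. At an unadjusted p under 0.05 the counts were likewise 1, 1, and 1 of 10 in the comparisons of MBD-TET1-CDwt with empty vector, MBD-TET1-CDmut, and TET1-CDwt, where 6.6%, 6.84%, and 4.74% of all probes passed. They were 0 of 10 for each of TET1-CDwt and MBD-TET1-CDmut against empty vector, where 2.5% and 2.68% of all passed. The median difference of the 10 probes was 0.01 from empty vector and -0.13 from MBD-TET1-CDmut, beside -0.02 and 0.01 over all tested probes. MBD-TET1-CDwt and empty vector did not overlap in 4 of the 10 probes, where 30.8% of all did not, and MBD-TET1-CDwt and MBD-TET1-CDmut in 7 of the 10, where 36% of all did not.

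**Figure D1:**
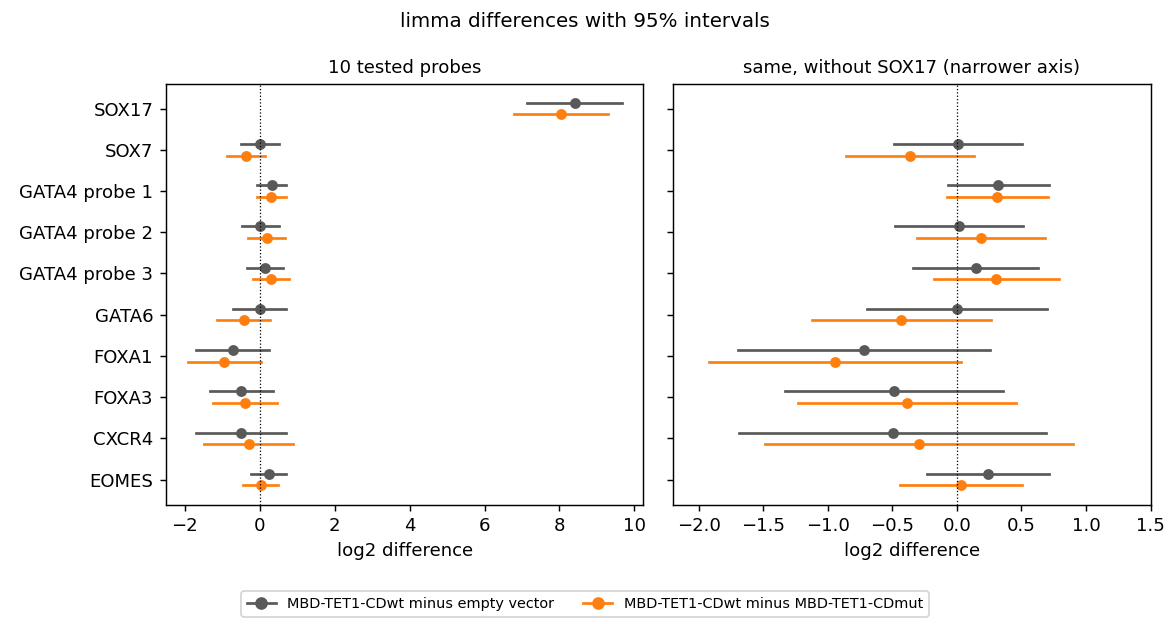
Log2 difference of MBD-TET1-CDwt from empty vector (gray) and from MBD-TET1-CDmut (orange) for the 10 tested probes. Points are limma estimates and lines are 95% intervals, and the right panel leaves out SOX17 to widen the axis. SOX17 lies at 8.40 and 8.04, and all other intervals include 0.

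GATA4 and GATA6, zinc finger factors of endoderm and heart, were already expressed in the empty vector clones and were not called in any comparison. GATA6 was at 1.97 and 1.99 in empty vector, 1.78 and 2.55 in TET1-CDwt, 2.21 and 1.75 in MBD-TET1-CDwt, and 2.52 and 2.30 in MBD-TET1-CDmut. The MBD-TET1-CDwt clones lay on either side of the empty vector clones, and their difference from empty vector lay between -0.70 and 0.69 (95% interval). Both MBD-TET1-CDmut clones were above both clones of MBD-TET1-CDwt and of empty vector, and MBD-TET1-CDwt differed from MBD-TET1-CDmut by -0.43 (interval -1.13 to 0.27).

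GATA4 was measured by 3 probes, all well above background on all 8 arrays. By probe A_23_P384761 it was -0.43 and -0.37 in MBD-TET1-CDwt, above each of the other 6 arrays, which lay at -0.67 and -0.78 in empty vector, -0.77 and -0.61 in TET1-CDwt, and -0.69 and -0.73 in MBD-TET1-CDmut. The difference was 0.32 from empty vector (95% interval -0.07 to 0.71, limma adjusted p = 0.81) and 0.31 from MBD-TET1-CDmut. Of all tested probes, 4.95% had both MBD-TET1-CDwt arrays above the other 6, and in this group these were SOX17 and this probe. The other probes of GATA4 did not set MBD-TET1-CDwt apart from all other arrays. A_33_P3293456 ranged from -3.44 to -2.99 and A_33_P3360363 from -1.77 to -1.29, with the MBD-TET1-CDwt clones at -3.01 and -3.24 and at -1.38 and -1.32. By the latter probe they were above both MBD-TET1-CDmut and both TET1-CDwt clones but between the empty vector clones, and it was not called.

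The FOXA genes encode forkhead pioneer factors that open chromatin in endoderm and liver. FOXA1 was at -2.11 and -1.67 in empty vector, -2.09 and -2.53 in TET1-CDwt, -3.25 and -1.97 in MBD-TET1-CDwt, and -1.64 and -1.69 in MBD-TET1-CDmut. The lowest level was that of MBD-TET1-CDwt #3, while #10 lay between the empty vector clones and below both MBD-TET1-CDmut clones. The difference was -0.72 from empty vector (95% interval -1.69 to 0.26, limma adjusted p = 0.847) and -0.94 from MBD-TET1-CDmut (interval -1.92 to 0.03, adjusted p = 0.739). The gap between the MBD-TET1-CDwt clones was 1.28, and 6.42% of the tested probes had one as large. FOXA3 was between -4.04 and -2.88 on the 8 arrays, with -3.11 and -3.62 in empty vector and -4.04 and -3.68 in MBD-TET1-CDwt. It was -2.88 and -3.86 in TET1-CDwt and -3.34 and -3.59 in MBD-TET1-CDmut. Both MBD-TET1-CDwt clones were below those of empty vector and of MBD-TET1-CDmut, and the difference from empty vector was -0.49 (interval -1.33 to 0.36, not called).

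FOXA2 differed between sister clones rather than between constructs. It was well above background on only 2 arrays, TET1-CDwt #2 at -3.67 and MBD-TET1-CDwt #10 at -3.09. Their sister clones were at background, with -7.89 for TET1-CDwt #5 and -7.73 for MBD-TET1-CDwt #3, as were all other arrays, with -6.37 and -8.23 in empty vector, and -6.16 and -5.90 in MBD-TET1-CDmut. FOXA2 was thus at least 4.65-fold higher in TET1-CDwt #2 than in #5, and in MBD-TET1-CDwt #10 it exceeded #3 by at least 5.55-fold, each a difference between single arrays. With no construct detected on both arrays FOXA2 was left out of the test, and when all probes were tested the difference of MBD-TET1-CDwt from empty vector was 1.89 ± 1.89 (SE, limma adjusted p = 0.751). The combination of TET1-CDwt #2 and MBD-TET1-CDwt #10 alone was shared by 44 of 34071 probes (0.129%), among them that of LEFTY2, an inhibitor of Nodal.

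EOMES, a T-box factor that starts the endoderm program, was expressed at a steady level. It was -4.19 and -4.42 in empty vector, -4.01 and -4.26 in TET1-CDwt, -4.01 and -4.13 in MBD-TET1-CDwt, and -3.96 and -4.24 in MBD-TET1-CDmut. Both MBD-TET1-CDwt clones were above both empty vector clones, and they overlapped with TET1-CDwt and MBD-TET1-CDmut. MBD-TET1-CDwt and empty vector differed by 0.24 (95% interval -0.23 to 0.71).

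CXCR4, the receptor for the chemokine CXCL12, was expressed in all clones and was not called. Its level was -0.01 and 0.39 in empty vector, 0.26 and -0.52 in TET1-CDwt, -1.07 and 0.46 in MBD-TET1-CDwt, and -0.09 and 0.07 in MBD-TET1-CDmut. The MBD-TET1-CDwt clones held both the lowest and the highest value. Their gap was 1.54, and 3.87% of the tested probes had one as large. The difference of MBD-TET1-CDwt from empty vector was -0.50 (95% interval -1.69 to 0.69) and from MBD-TET1-CDmut -0.29.

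Of the partners of CXCR4, ACKR3 and CXCL12 had probes well above background in MBD-TET1-CDwt clones only. ACKR3, the other receptor that binds CXCL12, was well above background only in MBD-TET1-CDwt #3 and #10, at -5.27 and -3.14, and lay between -8.26 and -6.72 on the other 6 arrays. That is at least 3.27-fold over empty vector and at least 2.50-fold over MBD-TET1-CDmut, but neither difference passed the test (log2 3.98 and 3.61, limma adjusted p = 0.286 and 0.316). These bounds rested mainly on #10, since #3 lay close to its array's weakest signal that passed the background limit (-5.56). ACKR3 entered the test only through MBD-TET1-CDwt, the group in which it was high, and its differences were taken against signals at background. CXCL12 itself was read by 4 probes. By A_23_P202448 it was 0.07 in MBD-TET1-CDwt #10 and not well above background elsewhere, at least 49.8-fold over the sister clone #3, and by A_24_P412156 it was -1.44 in #10 and at least 17.4-fold over #3. Of the other CXCL12 probes, A_33_P3712341 was well above background on all 8 arrays. It was -3.21 in #10 and between -4.99 and -4.32 on the other 7 arrays (difference from empty vector 0.67, not called). The last CXCL12 probe was well above background only in empty vector #2. Over the 8 genes of this axis 0 of 9 tested probes were called by limma, with ACKR3 the 1 probe at an unadjusted p under 0.05, where 0.115% and 6.6% of all probes passed. GNAI2, a G protein subunit that relays the receptor's signal, differed by 0.44.

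Genes of the pathways around the group were examined as 14 lists with 134 genes, of which 91 genes with 104 probes entered the test. In none of the 5 comparisons was a list probe called by limma. At an unadjusted p under 0.05 there were 11 of 104 in MBD-TET1-CDwt against empty vector and 10 against MBD-TET1-CDmut, where 6.6% and 6.84% of all probes passed. There were 3 for each of TET1-CDwt and MBD-TET1-CDmut against empty vector (2.5% and 2.68% of all), and 7 in MBD-TET1-CDwt against TET1-CDwt (4.74% of all). The median difference over the 104 probes was 0.11 from empty vector and -0.02 from MBD-TET1-CDmut, beside -0.02 and 0.01 over all probes.

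Upstream of the group, 10 of 16 genes of Nodal and Activin signaling were tested, and NODAL, GDF3, CFC1, and CER1 stayed at background on all arrays. The 3 probes at an unadjusted p under 0.05 all had a lower mean with MBD-TET1-CDwt, those of the receptors ACVR1B (-0.91) and ACVR1C (-0.85) and of the ligand GDF1 (-0.48), 3 of 10 where 6.6% of all probes passed. Within slide 2 the differences from MBD-TET1-CDmut were -0.57, -0.22, and -0.43. The level of ACVR1B was -4.34 and -4.68 in MBD-TET1-CDwt, below each of the other 6 arrays. LEFTY2 was well above background in TET1-CDwt #2 at -5.49 and in MBD-TET1-CDwt #10 at -3.85, as FOXA2 was.

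Among 14 other transcription factors of mesendoderm and endoderm 9 were tested, and the largest difference was that of HHEX, a homeobox factor of anterior endoderm and liver. HHEX was at -3.75 and -3.90 in empty vector, -2.60 and -3.06 in TET1-CDwt, -2.30 and -1.67 in MBD-TET1-CDwt, and -3.01 and -2.90 in MBD-TET1-CDmut. Both MBD-TET1-CDwt clones were above all others and both empty vector clones below all others. The difference was 1.84 ± 0.27 from empty vector (SE, limma adjusted p = 0.14) and 0.97 from MBD-TET1-CDmut, and did not pass the test. GSC, a homeobox factor of the organizer, differed by 0.65, with 1.04 in MBD-TET1-CDwt #10 and -0.07 in #3, and MEIS2 by 0.44. TBXT, MIXL1, HNF4A, and PDX1 were not well above background on any array.

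Of 20 genes made by definitive or visceral endoderm, 13 were tested. EPCAM, an epithelial adhesion molecule, differed by 2.05, with -0.23 in MBD-TET1-CDwt #10 and -3.14 in #3 against -3.01 and -4.46 in empty vector. DAB2, an endocytic adaptor of visceral endoderm, differed by 0.91, with -0.82 in #10 and -2.87 in #3, and a probe of the laminin chain LAMA1 by -0.53. In EPCAM and DAB2 the higher mean rested on #10, since #3 was below at least 1 empty vector clone. Of the liver and yolk sac products, AFP, ALB, TTR, APOA2, APOB, and FGB were not well above background on any array, whereas SERPINA1, AMN, and a probe of APOA1 were so on all 8 arrays, and none of these 3 probes was called.

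SOXF factors also act in endothelium, and of 18 vascular genes linked to them 9 were tested, 0 of 10 probes were called by limma in MBD-TET1-CDwt against empty vector, and 0 of 10 had an unadjusted p under 0.05, where 0.115% and 6.6% of all probes passed. NOTCH4, an endothelial Notch receptor, differed by -0.70, which rested on MBD-TET1-CDwt #3 at -4.24, since #10 at -2.82 lay between the empty vector clones. The transcription factor MEF2C differed by 0.43 and a probe of NOTCH1 by 0.36. Within slide 2, MEF2C was higher than with MBD-TET1-CDmut by 0.79 (not called). It was the 1 probe of 10 at an unadjusted limma p under 0.05 there, where 6.84% of all probes passed. DLL4, TEK, KDR, CLDN5, ROBO4, and VCAM1 were not well above background on any array, whereas NR2F2, EGFL7, RASIP1, FLT4, and CDH5 were so on all 8.

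Among beta-catenin and its TCF partners and targets 8 of 8 genes were tested, with 12 probes. MYC differed by -0.81 from empty vector and CCND1, a G1 cyclin, by -0.74, with CCND1 at -1.90 and -2.30 in MBD-TET1-CDwt and between -1.49 and -1.22 on the other 6 arrays. Within slide 2 the difference from MBD-TET1-CDmut was -0.05 for MYC and -0.82 for CCND1. One probe of TCF7L2 differed by 0.83 from empty vector and by 0.54 from MBD-TET1-CDmut. In the list of other SOX genes, 11 of 16 were tested. SOX3 differed by 1.06, SOX9 by 0.82, and SOX8 by 0.59, none of them called. The means of SOX3 and SOX8 rested on MBD-TET1-CDwt #10, at -1.28 and 1.99, since #3 was at -3.70 for SOX3, between the empty vector clones, and at -0.12 for SOX8, below both. SOX9 was at -3.68 and -3.00 in MBD-TET1-CDwt and between -4.25 and -3.33 on the other 6 arrays. Of the factors related to GATA and EOMES, 6 of 8 genes were tested, and GATA2 differed by 0.62, the GATA cofactor ZFPM1 by 0.45, and ZFPM2 by 0.26, against 0.17, 0.29, and 0.43 from MBD-TET1-CDmut.

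In human primordial germ cells SOX17 acts with TFAP2C and PRDM1. Of 8 genes in this list 4 were tested, and PRDM1, PRDM14, and DPPA3 were not well above background on any array. TFAP2C differed by 0.74, with -1.07 in MBD-TET1-CDwt #10 and -2.77 in #3 against -2.63 and -2.69 in empty vector, a probe of KIT by -0.46, and NANOS3 by -0.34. The lower means of KIT and NANOS3 rested on #3, at -5.17 and -4.12, with #10 at -3.61 and -3.22 between the empty vector clones. The kidney and HEK293 markers with the largest differences were NEFM at -1.09, ENO2 at -0.42, and HOXD11 at 0.42. NEFM was at 0.32 in MBD-TET1-CDwt #3 alone, and #10 at 2.51 was level with empty vector at 2.51 and 2.50. Markers of other cell types that could be tested differed by 0.06 for CDH5 (endothelial), by -0.26 for APOA1 and -0.04 for SERPINA1 (hepatocyte), by 0.44 for PDGFRA and 0.38 for COL1A1 (fibroblast), and by -0.74 and 0.48 for the PTPRC probes (blood), none of them called. The PTPRC probe at -0.74 was well above background only in empty vector, at -5.48 and -5.43, and entered the test through that group alone.

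The 6 named genes whose levels over the 8 arrays were most like those of SOX17, by Pearson's r among the tested probes, were SOHLH2 (0.995), DMRTB1 (0.995), PRSS21 (0.993), CRABP1 (0.993), MEIOC (0.991), and HPDL (0.989). SOHLH2, DMRTB1, and MEIOC act in germ cells, PRSS21 encodes a testis serine protease, CRABP1 binds retinoic acid, and HPDL is a mitochondrial enzyme. In MBD-TET1-CDwt #3 and #10 they were at -2.95 and -2.29 for SOHLH2, -2.96 and -1.43 for DMRTB1, -2.03 and -0.60 for PRSS21, -4.20 and -3.10 for CRABP1, -4.47 and -2.98 for MEIOC, and -0.22 and 1.72 for HPDL. The values of r rest on the 2 MBD-TET1-CDwt arrays against the other 6. In each gene #10 was the higher clone, as in SOX17, an order that the choice by r over the same arrays favors.

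**Figure D2:**
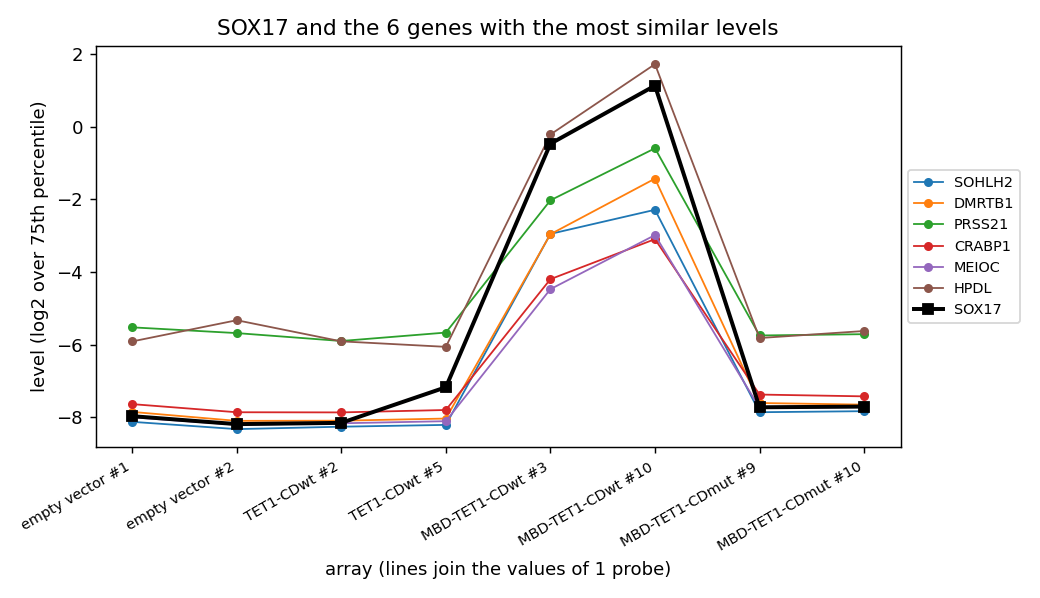
Levels of SOX17 (black squares) and of the 6 genes with the most similar pattern on the 8 arrays, in log2 intensity over the array's 75th percentile. Lines join the values of 1 probe, and the height of one probe cannot be compared with that of another. All 7 genes are high on the MBD-TET1-CDwt arrays, SOX17 at -0.47 and 1.13, and low on the other 6.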

How the data were processed

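The authors hybridized Cy3-labeled cRNA of 8 HEK293T cell lines to Agilent 4x44K v2 arrays, and the deposited values are spot intensities of Feature Extraction (version 9.5.1, per the submitters' processing notes), linear, background-subtracted, and not scaled between arrays. The series-wide table deposited beside the scanner files repeats these intensities. Control spots were dropped, as were 213 to 269 spots per array flagged as outliers, log2 intensities of the spots of a probe were averaged, and the 75th percentile over the probes of the array was subtracted. A probe was well above background when over 50% of its spots were. Of 34127 probes, 25419 were named by RefSeq transcript (assembly GRCh38.p14, for names only). The array design was annotated on hg19 and no coordinates of probes are given. limma (3.58.1, R 4.3.3) was fitted with 4 group means to all 8 arrays (4 residual degrees of freedom) over the 22530 probes for which some group was well above background in both clones, and p-values were adjusted by Benjamini-Hochberg. With 2 clones in a group, p-values measure only the spread between clones. Where the lower group was not well above background, folds were taken against the array's weakest signal that passed the background limit, or the probe's own if higher, and are lower bounds. Tested on simulated data (22530 probes, the contrast of MBD-TET1-CDwt with empty vector), limma recovered 7, 35, 44, and 47 of 50 probes changed by 1, 2, 3, and 4 on the log2 scale, with 16 false calls. The share of false calls among all calls was thus above the adjusted p threshold of 0.05 in this simulation.

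The genes, the lists (Nodal and Activin signaling, endoderm transcription factors and products, vascular, CXCR4, beta-catenin, SOX, GATA and EOMES relatives, germ cell, kidney, and other cell types), and the tests were chosen with earlier results of these data known. Named are all 10 genes, list genes called in any comparison, up to 3 per list with the largest difference of MBD-TET1-CDwt from empty vector, the 6 genes most like SOX17, TET1, and MBD2. List genes not well above background, LEFTY2, SOX10, TBR1, CUBN, NANOG, and extra probes were named after their values were seen. Alternatives were other scalings, background correction, filters, floors, priors, and fits, and leaving out each clone. Figures were drawn with matplotlib 3.10.9, and Python 3.11.15 with pandas 2.3.3, scipy 1.17.1, and numpy 2.4.6 was used for the other steps. The result for 1 marker gene is not reported here.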

Additional observations from a re-analysis of the deposited data

How the results depend on the processing

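The precision is limited by 2 clones in each group. Main calls over all probes for MBD-TET1-CDwt were 23 higher and 3 lower against empty vector, 20 and 3 against MBD-TET1-CDmut, and 24 and 2 against TET1-CDwt. SOX17 kept its direction in all alternatives, and its difference from empty vector stayed past the threshold in 14 of 17 and that from MBD-TET1-CDmut in 13 of 17. With normexp background correction on the median spot signals, chosen after seeing the data, the differences were 3.41 (limma adjusted p = 0.0790) and 3.28 (adjusted p = 0.0815). This setting changed the signal and its background correction, added an offset of 50 to every signal, and tested 20652 probes. Which of these changes lowered the differences was not tested. Fitted to only the 4 arrays compared, the SOX17 differences were 8.40 (limma adjusted p = 0.0890) and 8.04 (adjusted p = 0.0746). Leaving out 1 clone gave 7.60 to 9.20 against empty vector and 7.24 to 8.84 against MBD-TET1-CDmut. Without empty vector #2 the first was 8.29 (adjusted p = 0.0574), and without MBD-TET1-CDmut #10 and #9 the second was 8.05 and 8.03 (adjusted p = 0.0816 and 0.111). The genes of the group called fell from 1 to 0 with normexp, with the 4 arrays compared, and when only probes well above background on all 8 arrays were kept, which removes SOX17, in MBD-TET1-CDwt against empty vector, MBD-TET1-CDmut, and TET1-CDwt, and without 1 clone they were 0 to 1 against empty vector and MBD-TET1-CDmut. With dim signals at the floor SOX17 differed by 6.24 (adjusted p = 0.00734) from empty vector and 5.86 (adjusted p = 0.0158) from MBD-TET1-CDmut. Of 861 other values of the group, 51 moved by over 1 SD, 59 that were not called had the opposite sign, and 0 were newly called or, having been called, changed sign.

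Over all probes, normexp and the filter for probes well above background on all 8 arrays each gave 0 calls in every comparison. The higher and lower calls against empty vector and then against MBD-TET1-CDmut were 14 and 0 and 10 and 2 with the floor, 15 and 0 and 10 and 0 with limma-trend, 9 and 1 and 9 and 2 with no filter, and 2 and 0 and 0 and 0 in the 4-array fit. Without MBD-TET1-CDwt #10 they were 36 and 58 and 42 and 101, and without #3 83 and 14 and 68 and 7. No paired analysis was possible because clone numbers do not pair samples and the groups compared share at most 1 number.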

Other observations

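Some developmental regulators outside the group were detected in single clones, values that belong to no comparison of constructs. SOX10, a neural crest factor, was well above background only in TET1-CDwt #5, at -3.71, at least 4.70-fold over #2. TBR1, the T-box relative of EOMES, was well above background only in MBD-TET1-CDwt #3, at -4.13, at least 2.61-fold over #10. CUBN, an endocytic receptor of visceral endoderm and kidney, was so only in MBD-TET1-CDwt #10, at -4.73, at least 1.78-fold over #3. NANOG was well above background in empty vector #2 and MBD-TET1-CDwt #10, both at about the same level (-4.79 and -4.78).

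TET1 and MBD2, which gave the domains of the constructs, were read by 2 probes each, and where these lie relative to the expressed domains was not examined. The TET1 probes ranged from -1.55 to -0.70 and from 2.61 to 2.94 over the 8 arrays, and the brighter MBD2 probe from 1.25 to 1.65. The dimmer MBD2 probe, also well above background on all 8 arrays, ranged from -5.21 to -2.57, with its highest level in TET1-CDwt #5.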
